A study of Mus musculus with 20 samples.

Results

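The genes described here are 7 genes of the IRE1 branch of the unfolded protein response or close to it, read from the rows of the deposited tables that carry their symbols. They are Ern1 (gene ID 78943), which encodes the sensor IRE1, the transcription factor gene Xbp1 (22433), its target Dnajb9 (27362), the ER stress regulator Wfs1 (22393) and 3 mRNAs known as substrates of IRE1, Bloc1s1 (14533), Hgsnat (52120) and Scara3 (219151). All 7 were found in every table, among 19368 genes in the tables of oxygen-induced retinopathy (OIR) and 19102 genes in the tables of injected eyes, of which 18754 are in both.

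RNA-Seq was done on whole mouse retinas, cornea and lens removed, with 20 libraries in 4 groups of 5. The first pair of groups held Atf6+/+ and Atf6-/- C57BL/6J mice at postnatal day 17 (P17). Both had been put with their nursing mothers into 75% oxygen at P7 and returned to room air at P12, a treatment that first clears retinal vessels and then drives abnormal vessel growth. The Atf6-/- mice make no ATF6 protein, a stress sensor, in any cell, since their germ line carries a premature stop codon in the gene. The second pair held wild type mice at P30, never placed in high oxygen, whose eyes were injected intravitreally with 1 µL of 10 µM Ceapin-A7, a small molecule that blocks ATF6, or with the saline vehicle. Those retinas were taken 24 h later. The labels give both solutions the same range of a trace organic solvent, whereas the study's methods give the saline vehicle a larger share of it than the Ceapin-A7 solution. An effect of Ceapin-A7 and one of unequal solvent then cannot be told apart. The labels do not tie a library to an animal or a litter, so the p-values below measure the spread between these libraries. The question for these genes is what the IRE1 branch does at the RNA level when ATF6, a separate branch of the same response, is removed or blocked.

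IRE1 is an ER membrane protein with a kinase and an RNase domain. When unfolded proteins accumulate in the ER it clusters, and its RNase cuts Xbp1 mRNA at a pair of stem-loops. The tRNA ligase RTCB then joins the ends, and the frameshifted mRNA encodes XBP1s, an activator of genes for ER folding, translocation and degradation. IRE1 also cuts other mRNAs at similar loops, which lowers them, a process named regulated IRE1-dependent decay (RIDD). ATF6 is a transcription factor released from the ER by cleavage in the Golgi, and Xbp1 is among its known targets. Photoreceptors make large amounts of opsin in the ER, and mutations in WFS1, HGSNAT and ATF6 each cause human disease of the retina or the optic nerve.

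The sequence that IRE1 reads is shown first, since the values below are sums over cut and uncut Xbp1 and cannot tell them apart. Transcript sequences are those of GENCODE M21 (GRCm38), and every coding transcript of each gene was searched for the loop CNGCAGN closed by at least 4 Watson-Crick pairs. Such a stem-loop was found in Xbp1, Bloc1s1 and Scara3, and not in Ern1, Dnajb9, Wfs1 or Hgsnat. It occurs in 732 of 21877 coding genes (3.35%), and the loop letters without the stem occur in 93.7%. The loop is in capitals and the paired stem in lower case.
Xbp1, first stem-loop: ctgagtCCGCAGCactcag
Xbp1, second stem-loop: tgcacctCTGCAGCaggtgca
Bloc1s1: gcagCTGCAGTctgc
Scara3: gggccCTGCAGAggccc
The Xbp1 loops start at bases 812 and 838 of the 2129-base transcript, in the coding sequence, with stems of 6 and 7 pairs. The Bloc1s1 loop, with 4 pairs, starts at base 447 of a 550-base transcript, near the end of its coding sequence. The Scara3 loop has 5 pairs and starts at base 408, in the 5′ UTR. Between the cuts in Xbp1 lie 26 bases, positions 815 to 840, in capitals here:
Xbp1 positions 806 to 851: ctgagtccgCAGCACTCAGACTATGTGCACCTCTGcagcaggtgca
Removal of the capitals is the splicing event. FPKM, read fragments scaled by transcript length and by library depth, were given per gene, so a shift between spliced and unspliced Xbp1 at a constant sum was not measured here.

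The values are FPKM to 2 decimals. For tests they were divided by a median-of-ratios factor per library, 0.946 to 1.04, and log2(FPKM + 0.1) was compared with limma for genes with a mean FPKM above 0.1, which all 7 genes passed in each comparison. Fold changes are on this log2 scale, and adjusted p-values were computed by Benjamini and Hochberg's method from every gene of the comparison. FPKM are divided by transcript length, so levels can also be compared between genes. In Atf6+/+ OIR retinas the order of mean FPKM was Bloc1s1 (82.3 ± 13.7, SD, n = 5), Xbp1 (51.1 ± 6.57), Wfs1 (27.0 ± 3.83), Hgsnat (17.01 ± 0.885), Dnajb9 (16.5 ± 1.29), Scara3 (10.6 ± 2.40) and Ern1 (6.79 ± 0.692). Only Hgsnat and Dnajb9 had overlapping ranges among neighbours in that order. In saline-treated retinas Bloc1s1 and Xbp1 overlapped, as did Hgsnat, Wfs1 and Dnajb9, and as did Scara3 and Ern1. In Atf6-/- OIR, Bloc1s1 and Xbp1 came first again and did not overlap, and Wfs1, Dnajb9 and Hgsnat overlapped. After Ceapin-A7 the overlaps were those of Dnajb9 with Wfs1 and of Scara3 with Ern1.

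Some libraries stood apart within their group, and values without them are given beside those they move most. Saline replicates 4 and 5 had summed FPKM of 8 rod markers of 15510 and 14460, against 20030 to 22270 in the other saline libraries, and of 6 Müller glia markers of 1188 and 1384, against 1501 to 2175. In OIR, Atf6+/+ replicate 4 and Atf6-/- replicate 5 had the lowest weights when limma estimated library quality, 0.344 and 0.345, against 0.823 to 2.01 in the others. Across 12899 genes the deviation of these libraries from their group followed the GC content of the transcript (Spearman rho of -0.493 and 0.575), as did that of Atf6-/- replicate 4 (-0.591). The log2 fold changes between the OIR groups followed GC content too, with a rho of -0.479 across genes. GC content was 40.6% in Dnajb9, 50.3% in Hgsnat, 50.6% in Ern1, 53.0% in Xbp1, 55.5% in Scara3, 57.8% in Wfs1 and 58.6% in Bloc1s1. The sum of 16 lens fibre markers was 10.2 to 911 FPKM in Atf6+/+ OIR, 6.25 to 10.2 in Atf6-/- OIR, where Crygb and Crygc were listed at 0 in every library, 12.9 to 6133 after saline and 149 to 10850 after Ceapin-A7. The sum of 9 retinal pigment epithelium markers was 17.97 to 106.5, 65.85 to 292.1, 119.3 to 240.9 and 97.99 to 234.2 FPKM in the same order. The part of these cells in the values below was not tested. No rod or cone marker was at 0 in any group. Relative depth, read from the smallest steps of low FPKM values in 26 to 44 genes per library, was 1 except in Atf6-/- replicate 4 (0.944) and Ceapin-A7 replicate 3 (0.716).

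**Figure D1:**
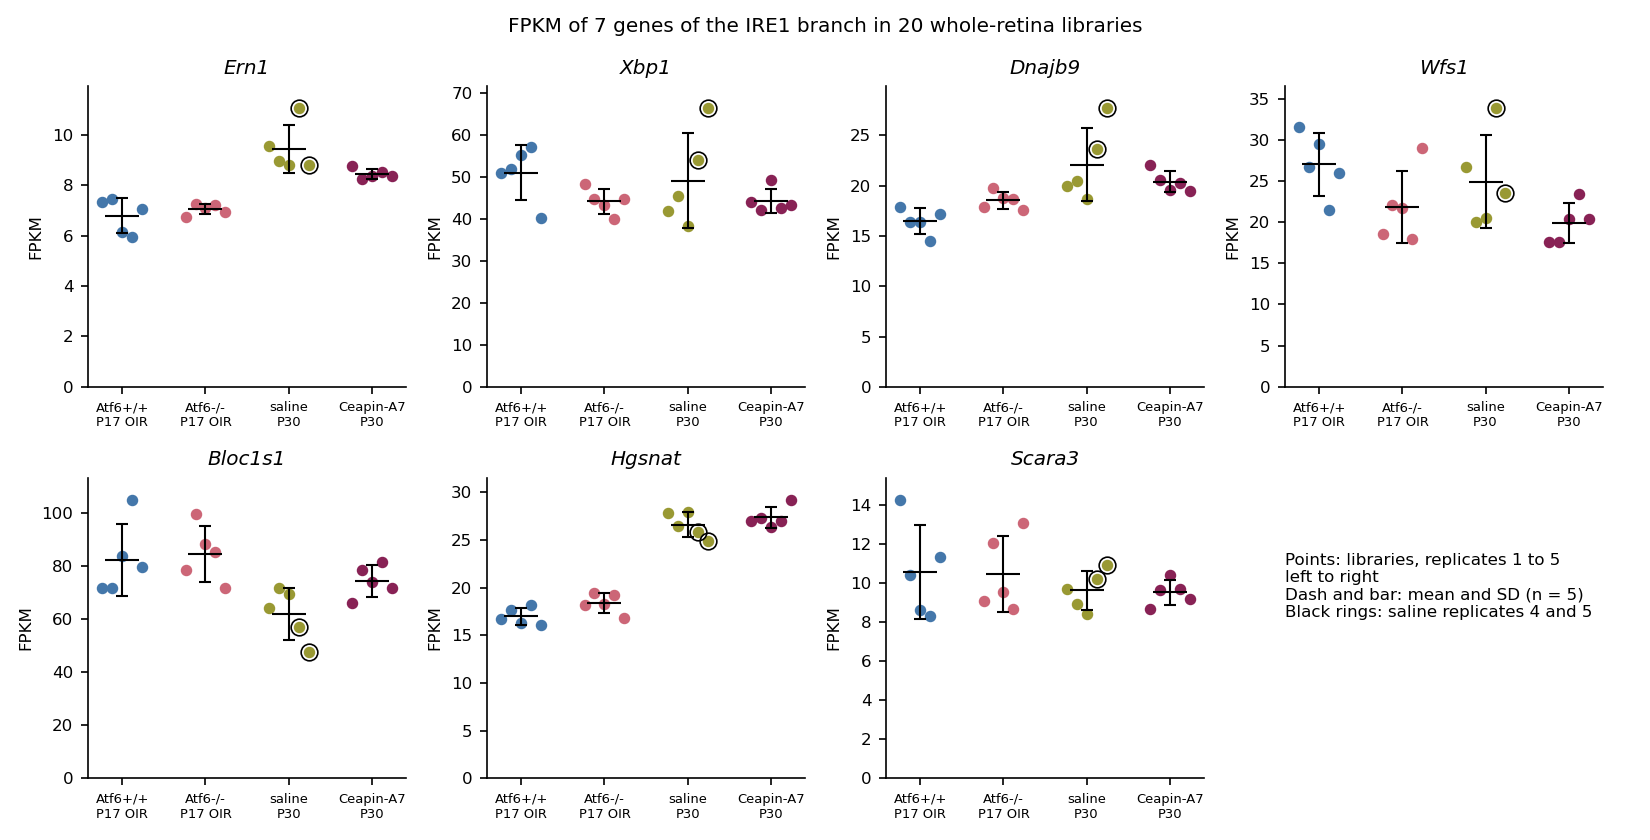
Deposited FPKM of the 7 genes on the y axis, from 0, for 20 libraries in 4 groups on the x axis. Points are libraries in the order of replicates 1 to 5, dashes and bars are mean and SD (n = 5), and black rings mark saline replicates 4 and 5. Ern1, Dnajb9 and Hgsnat sit higher in every saline library than in any Atf6+/+ OIR library, while Atf6+/+ and Atf6-/- OIR values overlap for all 7 genes.

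None of the 7 genes in Atf6-/- OIR retinas passed an adjusted p of 0.05, where 0.0318% of 15704 genes did, and Dnajb9 and Hgsnat, both with higher point estimates, were the 2 with an unadjusted p of 0.05 or less, where 12.7% of all genes were, 6.92% higher and 5.83% lower. Estimates ran from 0.813-fold for Wfs1, with an interval of 0.652 to 1.02, to 1.14-fold for Dnajb9. Wfs1 passed when libraries were weighted by quality, as did 17.7% of all genes. Ceapin-A7 gave no adjusted call for these or any other gene (0%), and Ern1, Wfs1 and Bloc1s1 had an unadjusted p of 0.05 or less, where 10.4% of 15408 genes did. At that level 5.04% of all genes had a positive estimate, as had Bloc1s1, and 5.32% a negative one, as had Ern1 and Wfs1. Without saline replicates 4 and 5 only Ern1 of the 7 was left at that level. In whole retina, fewer cells of a type and less RNA per cell cannot be told apart. The targeted gene, Atf6, was read at 13.6 to 16.8 FPKM in Atf6-/- OIR and 14.6 to 16.1 FPKM in Atf6+/+ OIR. The mutant allele carries an early stop codon, so this level does not check the genotype.

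**Figure D2:**
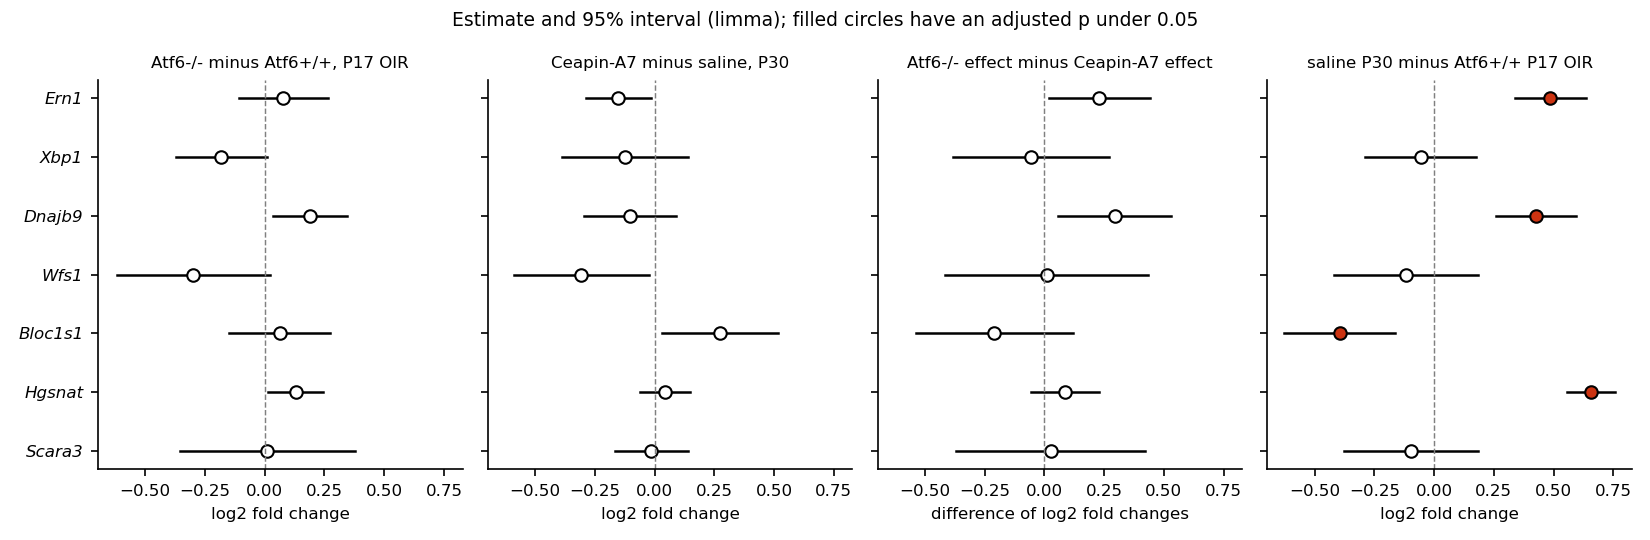
Log2 fold change with 95% interval from limma on the x axis for the 7 genes on the y axis, in 4 comparisons with 5 libraries per group. Filled circles, seen only in the panel of saline P30 against Atf6+/+ P17 OIR, have an adjusted p under 0.05 (Ern1, Dnajb9, Bloc1s1 and Hgsnat).

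Ern1 encodes the sensor, whose mRNA was the least abundant of the 7. Its FPKM in Atf6+/+ OIR replicates 1 to 5 were 7.33, 7.44, 6.13, 5.96 and 7.07. In Atf6-/- OIR they were 6.75, 7.24, 7.10, 7.20 and 6.96. All Atf6-/- values lay within the wild type range. Between genotypes the log2 fold change was 0.08 (95% interval -0.11 to 0.26, adjusted p = 0.667 by limma). After saline the values were 9.55, 8.95, 8.82, 11.06 and 8.81. After Ceapin-A7 they were 8.77, 8.24, 8.38, 8.53 and 8.36. The highest Ceapin-A7 value, 8.77, was just under the lowest saline value, 8.81, and the groups overlapped once rescaled. Ceapin-A7 against saline gave -0.15 (-0.29 to -0.02) on the log2 scale, with an adjusted p of 0.472 by limma, and -0.12 without saline replicates 4 and 5. The Atf6-/- effect minus the Ceapin-A7 effect was 0.23 (0.02 to 0.44, unadjusted p = 0.0336, adjusted p = 0.519 by limma).

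Xbp1, the transcription factor mRNA that IRE1 cuts, was abundant. In Atf6+/+ OIR its FPKM were 50.93, 51.93, 55.24, 57.14 and 40.23. Atf6-/- OIR libraries gave 48.37, 44.82, 43.30, 40.14 and 44.75. Replicates 1 to 4 of Atf6+/+ were above every Atf6-/- library, and Atf6+/+ replicate 5 was below all but 1 of them. The log2 fold change was -0.18 (95% interval -0.37 to 0.0086), with an unadjusted p of 0.0597 and an adjusted p of 0.408 by limma. The interval reaches a level 0.774 times that of wild type. The estimate was -0.26 without Atf6+/+ replicate 5. After saline the values were 41.85, 45.42, 38.29, 54.05 and 66.47. After Ceapin-A7 they were 44.20, 42.22, 49.45, 42.56 and 43.40. The highest values of the saline group were those of replicates 4 and 5, which had the low rod marker sums, and the Ceapin-A7 values lay within the saline range. The log2 fold change of -0.12 (-0.38 to 0.14, adjusted p = 0.703 by limma) turned to 0.07 without saline replicates 4 and 5.

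Dnajb9 encodes ERdj4, an ER cochaperone of BiP and a direct target of XBP1s, and is often used as a readout of IRE1 signaling. The set of RefSeq promoters used here held 5 of the 7 genes (Ern1, Xbp1, Dnajb9, Wfs1, Bloc1s1). Hgsnat and Scara3 were absent from that set and were not searched. In these windows, from 250 bases before to 50 bases after the start (GRCm38.p6), both strands were searched for the ER stress element ERSE (CCAAT, 9 bases of any kind, CCACG), ERSE-II (ATTGG, 1 base of any kind, CCACG), UPRE (TGACGTGG) and CCACG alone. The first 3 were in none of the 5 windows, and are in 0.119%, 0.0365% and 0.676% of 32851 promoters of that length. CCACG, which is part of both ERSE forms, was found in Ern1 (1 match) and Dnajb9 (2 matches), and is in 32.8% of all promoters. The 120 bases before the Dnajb9 start hold both of its matches, in capitals, shown because CCACG is the part of the element that XBP1s and ATF6 are known to read.
Dnajb9, GRCm38.p6 chr12:44210069-44210188, minus strand: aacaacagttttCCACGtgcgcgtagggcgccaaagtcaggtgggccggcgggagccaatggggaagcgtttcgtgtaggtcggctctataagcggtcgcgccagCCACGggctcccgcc
The absence of the longer letters from these windows says nothing about binding elsewhere.

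The FPKM of Dnajb9 in Atf6+/+ OIR were 17.93, 16.37, 16.35, 14.49 and 17.23. The Atf6-/- OIR values were 17.92, 19.73, 18.79, 18.72 and 17.57. Of the Atf6-/- libraries, 4 were above every Atf6+/+ library after rescaling, so that Dnajb9 was higher and Xbp1 lower in Atf6-/- retinas by point estimate. Atf6-/- against Atf6+/+ gave 0.19 on the log2 scale (95% interval 0.04 to 0.34, unadjusted p = 0.0202, adjusted p = 0.362 by limma), which did not pass. A correction for the GC trend, applied to each library, gave 0.08 for Dnajb9, the gene of lowest GC content here, and 0.13 was left without Atf6+/+ replicate 4 and Atf6-/- replicate 5. After saline the values were 20, 20.44, 18.70, 23.64 and 27.70. After Ceapin-A7 they were 22.10, 20.57, 19.53, 20.26 and 19.50. As for Xbp1, saline replicates 4 and 5 were the highest, and the groups overlapped. The log2 fold change of -0.10 (-0.29 to 0.09, adjusted p = 0.664 by limma) was 0.03 without those libraries. The Atf6-/- effect minus the Ceapin-A7 effect was 0.29 (0.06 to 0.53, unadjusted p = 0.0178, adjusted p = 0.483 by limma), where 9.20% of 15628 genes had an unadjusted p of 0.05 or less, 5.40% in this direction, and 0.0320% passed the adjusted threshold. Without saline replicates 4 and 5 it was 0.16 (unadjusted p = 0.0974), and that of Ern1 0.20 (unadjusted p = 0.0618). The experiments compared there differ also in age and oxygen exposure.

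Wfs1 encodes wolframin, an ER membrane protein that restrains ER stress signaling and is mutated in Wolfram syndrome, in which retinal ganglion cells and optic nerve are lost. It was read at 31.56, 26.64, 29.44, 21.46 and 26.00 FPKM in Atf6+/+ OIR. In Atf6-/- OIR it was read at 18.52, 22.09, 21.67, 17.89 and 29.02. Atf6+/+ replicate 4 was the lowest of its group and Atf6-/- replicate 5 the highest of its own, which are the libraries of lowest weight, and the other libraries of the groups did not overlap. With all libraries the log2 fold change was -0.30 (95% interval -0.62 to 0.02, adjusted p = 0.413 by limma). It was -0.42 with library weights (adjusted p = 0.027 by limma), which called 2772 genes, 17.7% of those tested. It was -0.52 without both libraries (adjusted p = 0.00273 by limma). Leaving out the library of each group that lies nearest to the other group widens a difference by construction, and the same step called 3914 genes in place of 5, 24.9% of those tested, among them Hgsnat (0.15, adjusted p = 0.0486). The GC correction gave -0.18 for Wfs1 (adjusted p = 0.533). After saline Wfs1 was at 26.64, 20.06, 20.52, 33.82 and 23.49 FPKM. After Ceapin-A7 it was at 17.56, 17.59, 20.41, 23.38 and 20.38. Saline replicate 4 was the highest of the 10 libraries, and the groups overlapped. Ceapin-A7 against saline was -0.31 (-0.59 to -0.03, unadjusted p = 0.0353, adjusted p = 0.472 by limma), and -0.19 without saline replicates 4 and 5. The point estimates after gene loss and after Ceapin-A7 were thus close, with a difference of 0.0095 and an interval of -0.41 to 0.43, which is too wide to call them alike.

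Bloc1s1 encodes a subunit shared by BLOC-1 and BORC, complexes that sort and position endosomes and lysosomes, and is the most widely used marker of RIDD, falling when IRE1 RNase is active outside Xbp1. Its FPKM in Atf6+/+ OIR were 71.70, 71.81, 83.72, 104.96 and 79.45. In Atf6-/- OIR they were 78.66, 99.74, 88.18, 85.14 and 71.64. The ranges were nearly the same, and the highest value was that of Atf6+/+ replicate 4. This gave a log2 fold change of 0.06 (95% interval -0.15 to 0.27, adjusted p = 0.755 by limma). It was 0.19 with the GC correction (adjusted p = 0.635) and 0.18 without Atf6+/+ replicate 4 and Atf6-/- replicate 5 (adjusted p = 0.0861). After saline the values were 64.12, 71.75, 69.34, 57.00 and 47.60. After Ceapin-A7 they were 65.99, 78.37, 74.01, 81.70 and 71.80. Saline replicates 4 and 5, the highest for Xbp1 and Dnajb9, were the lowest for Bloc1s1. The effect of Ceapin-A7 was 0.27 (0.03 to 0.52, unadjusted p = 0.0292, adjusted p = 0.472 by limma) and fell to 0.10 without those libraries. In the GRCm38 annotation the span of Bloc1s1 overlaps that of Rdh5, a retinal pigment epithelium gene, on the same strand. Reads of a shared exon could be assigned to either gene. Whether exons overlap, in that annotation or in the authors' GRCm39 one, was not checked. Rdh5 was read at 5.08 ± 2.17 FPKM in Atf6+/+ OIR, 10.1 ± 4.23 in Atf6-/- OIR, 15.7 ± 4.84 after saline and 12.03 ± 2.92 after Ceapin-A7 (SD, n = 5). How many reads of Bloc1s1 this touches, if any, was not measured.

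Hgsnat encodes the lysosomal acetyltransferase of heparan sulfate breakdown, whose loss causes Sanfilippo syndrome or retinitis pigmentosa. In Atf6+/+ OIR its FPKM were 16.77, 17.71, 16.29, 18.14 and 16.12. Atf6-/- OIR libraries gave 18.15, 19.50, 18.32, 19.20 and 16.79. The deposited values overlapped through Atf6-/- replicate 5, but rescaled values did not, at 16 to 17.71 against 17.75 to 19.09. That held for 1.78% of all genes in this comparison, and Hgsnat was the only one of the 7. Atf6-/- against Atf6+/+ was 0.13 on the log2 scale (95% interval 0.01 to 0.25, unadjusted p = 0.0308, adjusted p = 0.367 by limma), which is small and did not pass. After saline the values were 27.85, 26.44, 27.92, 25.87 and 24.90. After Ceapin-A7 they were 27.01, 27.36, 26.36, 27.04 and 29.23. The groups overlapped, and the coefficient of variation of Hgsnat was low in all 4 groups, 3.96% to 5.77%. Ceapin-A7 against saline was 0.04 (-0.06 to 0.15, adjusted p = 0.741 by limma), an interval that ends at 1.11-fold.

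Scara3 encodes a class A scavenger receptor family protein induced by oxidative stress, and its mRNA is a RIDD substrate. It was at 14.29, 10.42, 8.63, 8.35 and 11.33 FPKM in Atf6+/+ OIR. In Atf6-/- OIR it was at 9.08, 12.05, 9.56, 8.71 and 13.08. The ranges overlapped almost fully, and the spread was the widest of the 7 genes in OIR for wild type, with a coefficient of variation of 22.7%. Between genotypes the difference was 0.01 (95% interval -0.36 to 0.38, adjusted p = 0.977 by limma). After saline the values were 9.71, 8.95, 8.44, 10.21 and 10.93. After Ceapin-A7 they were 8.69, 9.68, 10.42, 9.72 and 9.18. The difference was -0.01 (-0.16 to 0.14, adjusted p = 0.957 by limma). Of the 3 RIDD substrates, then, none was called in either comparison, and after Ceapin-A7 the point estimates were 0.27 for Bloc1s1, 0.04 for Hgsnat and -0.01 for Scara3. In Atf6-/- OIR they were 0.06, 0.13 and 0.01 in the same order.

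The 2 control groups differed far more widely than the treated groups differed from their controls. Saline P30 against Atf6+/+ P17 OIR called 4 of the 7 genes, where 59.0% of 15628 genes were called, so the share among the 7 is near that of all genes. Age, oxygen exposure and injection change together in this comparison and cannot be told apart. Hgsnat was 1.58-fold higher in the saline group (1.47 to 1.69, log2 0.66, adjusted p = 9.11e-10 by limma), Ern1 1.40-fold (1.26 to 1.55, log2 0.49, adjusted p = 7.79e-06) and Dnajb9 1.34-fold (1.2 to 1.51, log2 0.43, adjusted p = 0.000132). For these 3 genes, and for 41.3% of all genes, the rescaled ranges did not overlap. Bloc1s1 was 0.76-fold that of Atf6+/+ OIR (0.647 to 0.894, log2 -0.40, adjusted p = 0.00474 by limma), with the highest saline value, 71.75 FPKM, just above the lowest of Atf6+/+ OIR, 71.70. That call was lost without saline replicates 4 and 5 (log2 -0.22, adjusted p = 0.0779) and with the GC correction (log2 -0.22, adjusted p = 0.176). Dnajb9 kept its call under the GC correction, with log2 0.26 in place of 0.43 (adjusted p = 0.0249). Xbp1, with a log2 difference of -0.06 (-0.29 to 0.17, adjusted p = 0.677), passed only without saline replicates 4 and 5 (log2 -0.25, adjusted p = 0.0307). Wfs1 (log2 -0.12, -0.42 to 0.18) and Scara3 (log2 -0.10, -0.38 to 0.18) were not called. Thus Ern1 and Dnajb9 were higher in the P30 saline retinas while Xbp1 did not pass. Ceapin-A7-treated retinas lay on the same side of Atf6+/+ OIR for Ern1 (log2 0.33, adjusted p = 0.000463 by limma), Dnajb9 (0.32, adjusted p = 0.00176) and Hgsnat (0.70, adjusted p = 3.63e-10). Against Atf6+/+ OIR they were not called for Bloc1s1 (-0.12, adjusted p = 0.357 by limma), and were called lower for Wfs1 (-0.42, adjusted p = 0.0152). Xbp1 (-0.18) and Scara3 (-0.11) were not called. The share of all genes called there was not computed, while it was 59.0% for saline P30, so these calls are not read as particular to the 7 genes. Ceapin-A7 changes there together with age, oxygen exposure and injection, which cannot be told apart.

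**Figure D3:**
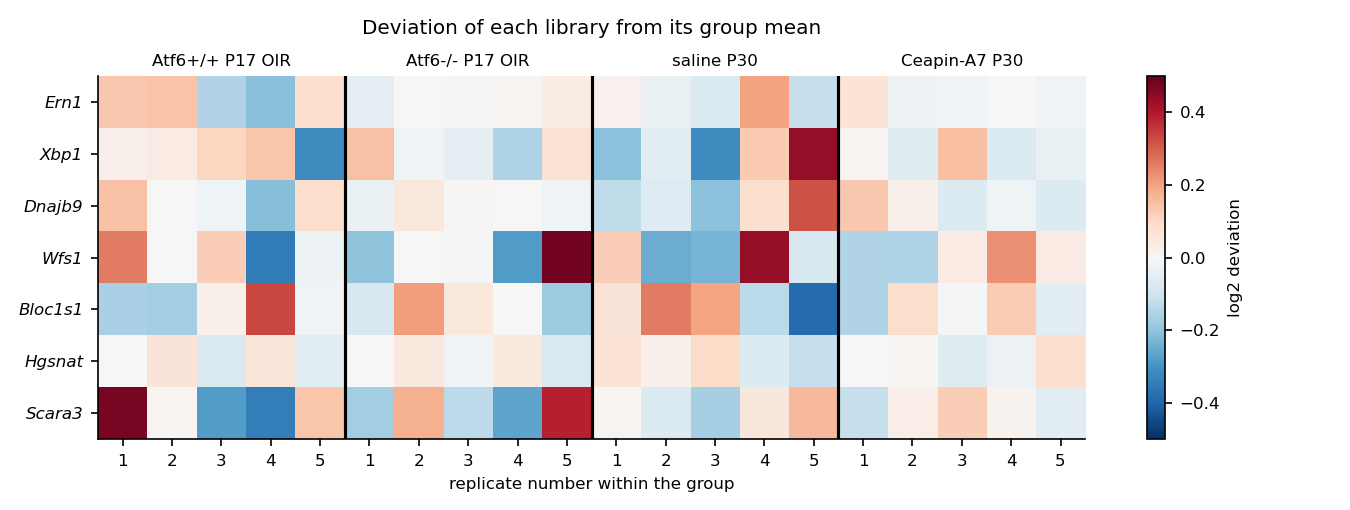
Deviation of each library from its group mean on the log2 scale (colour, red higher and blue lower) for the 7 genes in rows and 20 libraries in columns, with groups parted by black lines. Saline replicate 5 has Xbp1 at 0.44, Dnajb9 at 0.32 and Bloc1s1 at -0.39, and Atf6-/- replicate 5 has Wfs1 at 0.48 and Scara3 at 0.39.

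Within groups the 7 genes did not move as a block. With group means removed, over 20 libraries that share depth, GC and cell composition effects, the highest Pearson correlations between members were Wfs1 with Scara3 (0.648) and Ern1 with Wfs1 (0.534), and the lowest was Dnajb9 with Bloc1s1 (-0.733). Xbp1 and its target Dnajb9 had a correlation of 0.442, which was -0.29 without saline replicates 4 and 5, so it rests on these libraries. Without them the highest was Ern1 with Dnajb9 (0.736, against 0.359 with them) and the lowest Ern1 with Bloc1s1 (-0.708), while Wfs1 with Scara3 was 0.717, Ern1 with Wfs1 0.39 and Dnajb9 with Bloc1s1 -0.469. The genes closest to each member, among 12997 with a mean FPKM of at least 1, are given as a description.

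Closest to Xbp1 were Hspa5 (0.913), which encodes the ER chaperone BiP, and Mthfd2 (0.901), a mitochondrial folate enzyme known as an ATF4 target. Without saline replicates 4 and 5 these were 0.826 and 0.832. Hspa5 was at 122.81, 129.29, 153.42, 158.61 and 106.69 FPKM in Atf6+/+ OIR. It was at 122.36, 119.63, 116.38, 111.95 and 113.57 in Atf6-/- OIR. As for Xbp1, the lowest value of Hspa5 in Atf6+/+ OIR was that of replicate 5. After saline Hspa5 was at 110.20, 109.92, 106.39, 138.04 and 161.86 FPKM, highest in replicates 4 and 5. After Ceapin-A7 it was at 105.80, 112.52, 131.64, 109.92 and 117.32. Mthfd2 was at 12.97 and 15.09 FPKM in saline replicates 4 and 5, against 4.76 to 5.50 in the other saline libraries. The libraries with low rod and Müller glia marker sums thus also held more Xbp1, Hspa5, Mthfd2 and Dnajb9 RNA.

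Hk1, a hexokinase, had a value of 0.919 with Wfs1. Closest to Bloc1s1 were Ssu72 (0.948), an RNA polymerase phosphatase, and Emc7 (0.947), a subunit of an ER insertase, and to Scara3 Vat1 (0.903) and Cadm4 (0.895). Lower values marked the rest, with Zfp687 (0.862) and Garre1 (0.82) for Ern1, Elf2 (0.834) and Ier5 (0.823) for Dnajb9, and Nek4 (0.802) and Nprl3 (0.785) for Hgsnat. Those of Dnajb9 fell to 0.619 and 0.678 without saline replicates 4 and 5. None of the 14 closest genes was one of the 7.

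The rest of the pathway was read from lists of genes. In Atf6-/- against Atf6+/+ OIR and in Ceapin-A7 against saline no gene of any list had an adjusted p under 0.05, beside 0.0318% and 0% of all genes. Without Atf6+/+ replicate 4 and Atf6-/- replicate 5, where 24.9% of all genes were called, the counts were 5 of 14 IRE1 partners, 0 of 5 ligase genes, 6 of 26 XBP1 targets, 2 of 8 RIDD substrates, 3 of 6 wolframin partners, 2 of 12 complex subunits and 3 of 8 lysosomal enzymes. Of the genes named below for that comparison, Ptpn1, Mapk8, Ssr3, Sec23b, Pdgfrb, Smurf1, Syvn1, Borcs6 and Sgsh passed there, with adjusted p-values of 0.000349 to 0.0195 by limma. For Ceapin-A7 without saline replicates 4 and 5 no gene passed, and values that shrank by over 1.5 times were those of Ddrgk1 (0.10), Ddx1 (0.0077), Fam98b (-0.0007), Kdelr3 (-0.25), Col6a1 (-0.08), Ergic3 (0.034), Smurf1 (-0.05), Syvn1 (-0.06), Borcs7 (0.10), Naglu (0.0004) and Hpse (0.14), while Bloc1s2 grew to 0.14. Medians are log2 fold changes, and the median over all genes tested was 0.0028 and 0.0007.

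**Figure D4:**
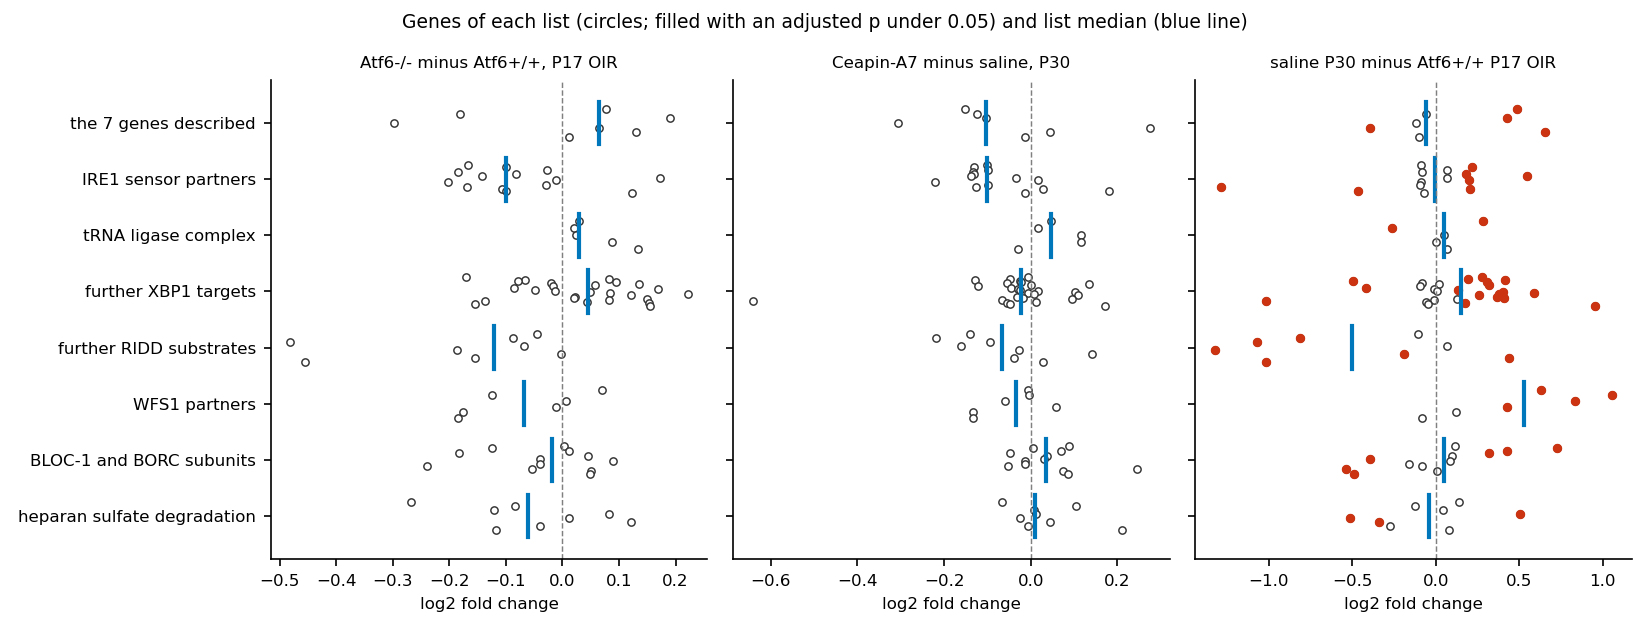
Log2 fold change (x axis, scaled for each panel) of every tested gene in 8 lists (y axis) for 3 comparisons, with the list median as a blue line and genes with an adjusted p under 0.05 filled. No circle is filled in the panels for Atf6 and Ceapin-A7, and both directions are filled in most lists for saline P30 against Atf6+/+ P17 OIR.

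Of 15 genes whose proteins bind, regulate or signal from IRE1, 14 were tested, since Ern2, the epithelial form of the sensor, was below the threshold. In Atf6-/- OIR 12 had a lower point estimate and 2 a higher one, where 7746 of 15704 genes had lower ones. The median was -0.10, with none at an unadjusted p of 0.05 or less, and -0.06 after the GC correction, with 1. The smallest p were those of Ptpn1, a phosphatase that promotes IRE1 signaling (-0.20, adjusted p = 0.411 by limma), and Mapk8, the kinase JNK1 (0.17, adjusted p = 0.417). After Ceapin-A7 11 were lower and 3 higher, with a median of -0.10 and 4 at an unadjusted p of 0.05 or less, where 10.4% of all genes were. Without saline replicates 4 and 5 the median was -0.02 and 1 was at that level. With all libraries those of smallest p were Ddrgk1, which stabilizes IRE1 (0.18, from 78.2 ± 4.93 to 88.7 ± 6.20 FPKM), and Pdia6, which attenuates it (-0.13, from 55.8 ± 3.84 to 50.9 ± 2.30), each with an adjusted p of 0.472 by limma. The Ddrgk1 effects differed by -0.28 between the experiments and those of Mapk8 by 0.21, without an adjusted call (0.448 and 0.573 by limma).

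The 5 genes of the tRNA ligase complex that joins cut Xbp1 had medians of 0.03 and 0.05, and -0.02 in Atf6-/- OIR after the GC correction, and none at an unadjusted p of 0.05 or less. The smallest p were Zbtb8os (0.13) and Fam98b (0.09) in Atf6-/- OIR and Ddx1 (0.11) and Fam98b (0.12) after Ceapin-A7. Of 26 further XBP1 targets, 16 had higher and 10 lower point estimates in Atf6-/- OIR, with a median of 0.05 that was -0.02 after the GC correction. Ssr3, of the translocon-associated complex (0.22, from 47.0 ± 4.60 to 54.2 ± 4.82 FPKM, adjusted p = 0.357 by limma), and Sec23b, of the COPII coat (0.17, adjusted p = 0.365), were the 2 at an unadjusted p of 0.05 or less, beside 12.7% of all genes. After Ceapin-A7 the median was -0.02, with 3 genes at that level, beside 10.4% of all genes. Spcs2, of the signal peptidase, was higher in every Ceapin-A7 library than in any saline library after rescaling (0.11, from 45.9 ± 0.835 to 49.6 ± 1.83 FPKM, adjusted p = 0.472 by limma), as 1.47% of all genes were in either direction. Kdelr3, a retrieval receptor of ER proteins, was at 2.75 ± 1.204 and 1.65 ± 0.454 FPKM (-0.64, adjusted p = 0.472).

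The 3 RIDD substrates among the 7 genes had higher point estimates in Atf6-/- OIR (Bloc1s1 0.06, Hgsnat 0.13, Scara3 0.01), and 7746 of 15704 genes had lower ones. All 8 further RIDD substrates had a lower point estimate in Atf6-/- OIR, with a median of -0.12 (-0.06 after the GC correction, -0.29 without Atf6+/+ replicate 4 and Atf6-/- replicate 5) and 2 at an unadjusted p of 0.05 or less, where 5.83% of all genes were so and lower. These were Itgb2, an integrin of leukocytes (-0.46, from 1.59 ± 0.3004 to 1.11 ± 0.206 FPKM, adjusted p = 0.357 by limma), and Pdgfrb, the pericyte receptor (-0.48, from 9.51 ± 1.64 to 6.90 ± 2.52, adjusted p = 0.382). Beside them, 8 of 8 mural cell markers and 8 of 9 microglia and macrophage markers also had lower point estimates, with medians of -0.55 and -0.10, and Pdgfrb is itself on the mural list. The sum of the mural markers was 102.0 to 152.1 FPKM in Atf6+/+ OIR and 83.6 to 104.8 in Atf6-/- OIR, and that of the microglia and macrophage markers 87.3 to 133.4 and 77.4 to 103.0, with no defining marker at 0. Their part in the substrates' values was not tested. After Ceapin-A7 the substrates had a median of -0.07, with Col6a1 (-0.22) and Ergic3 (0.14) of smallest p and none at an unadjusted p of 0.05 or less.

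Among 6 partners of wolframin the medians were -0.07 and -0.03. The ubiquitin ligases Smurf1 (-0.18 and -0.13) and Syvn1 (-0.18 and -0.13) had the smallest p in both experiments, with adjusted p-values of 0.41 to 0.514 by limma. Of 12 other subunits of BLOC-1 and BORC, the medians were -0.02 and 0.03. Bloc1s5 (-0.18, adjusted p = 0.376 by limma) and Borcs6 (-0.24, adjusted p = 0.39) led in Atf6-/- OIR, against 0.06 for Bloc1s1, and Borcs7 (0.25) and Bloc1s2 (0.09) after Ceapin-A7. Of 8 lysosomal enzymes of heparan sulfate breakdown other than Hgsnat, the medians were -0.06 and 0.01, with Sgsh (-0.27) and Ids (0.08) of smallest p in Atf6-/- OIR, and Naglu (0.10) and Hpse (0.21) after Ceapin-A7. None of these 8 had an unadjusted p of 0.05 or less in either experiment.

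Between the effects of the experiments, no gene of these lists differed at an adjusted p of 0.05. The genes of smallest p not yet named were Sec23b (0.20) and Fkbp14 (0.21) among XBP1 targets, Pdgfrb (-0.39) and Itgb2 (-0.48) among RIDD substrates, Zbtb8os (0.16) and Ddx1 (-0.09) in the ligase complex, Cisd2 (0.08) and Ncs1 (-0.12) among WFS1 partners, Borcs7 (-0.30) and Borcs6 (-0.18) among subunits, and Naglu (-0.19) among lysosomal enzymes. Their adjusted p-values were 0.49 to 0.82 by limma. Borcs7 was -0.15, Naglu -0.08 and Ddx1 0.0188 without saline replicates 4 and 5.

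Between the control groups part of each list was called, beside 59.0% of all genes. Of the XBP1 targets, 17 of 26 were called, 14 higher and 3 lower in saline P30, with a median of 0.15, where 29.3% of all genes were called higher and 29.7% lower and the median over all genes was -0.01. With the GC correction 12 were called higher and 5 lower. Ssr1, a translocon-associated gene (0.59, from 20.02 ± 1.22 to 29.8 ± 1.29 FPKM, adjusted p = 3.69e-09 by limma), and Sec11c, the signal peptidase catalytic subunit (0.96, from 21.0 ± 3.52 to 40.2 ± 4.497, adjusted p = 6.67e-08), were higher without overlap, as was Dnajb9. Of the 8 RIDD substrates, 6 were called, 5 of them lower, with Sparc (-1.32, from 461.2 ± 42.3 to 185.9 ± 46.2 FPKM, adjusted p = 5.37e-08) and Col6a1 (-0.81, adjusted p = 3.67e-07), both matrix genes, of smallest p. All 8 mural markers and 8 of 9 endothelial markers were lower in saline P30 too, 7 of each list by an adjusted p under 0.05, and the part of those cells in the substrates' values was not tested. Of the IRE1 partners 7 of 14 were called, 5 higher and 2 lower, beside 59.0% of all genes. Without saline replicates 4 and 5 it was 9 of 14, 4 higher and 5 lower, beside 55.7% of all genes. Bak1, an apoptosis effector that binds IRE1 (-1.28, adjusted p = 1.02e-09), and Ddrgk1 (-0.47, adjusted p = 8.93e-06) were lower.

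The counts that follow stand beside 59.0% of all genes called, 29.3% higher and 29.7% lower, and 55.7% without saline replicates 4 and 5. Of the tRNA ligase genes, Rtcb, the ligase itself, was higher (0.28, from 48.3 ± 3.93 to 58.0 ± 2.46 FPKM, adjusted p = 0.000136 by limma) and Rtraf lower (-0.26, adjusted p = 0.00116). Of the wolframin partners 4 of 6 were called, all higher, with Cisd2, which causes a second form of Wolfram syndrome when mutated (0.63, adjusted p = 1.07e-09), and Ncs1, a neuronal calcium sensor (1.06, adjusted p = 2.48e-09), of smallest p, while Wfs1 had -0.12. Of the BLOC-1 and BORC subunits 6 of 12 were called, 3 in each direction, with Dtnbp1 lower (-0.39, adjusted p = 1.49e-06), like Bloc1s1, and Bloc1s3 higher (0.72, adjusted p = 1.77e-06). Of the heparan sulfate enzymes 3 of 8 were called, with Ids higher (0.50, adjusted p = 9.37e-08), like Hgsnat, and Idua lower (-0.51, adjusted p = 3.68e-05), and 2 were called without saline replicates 4 and 5.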

How the data were processed

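RNA-Seq of 20 whole-retina libraries was used. Per the submitters' processing notes and methods, the authors made stranded mRNA libraries for DNBSEQ, aligned the reads to GRCm39 with HISAT2 (2.0.4), estimated expression with RSEM (1.2.18) and deposited FPKM per gene to 2 decimals. Their own comparisons used DESeq2 (1.4.5) and were not part of the tables. DESeq2 and its counts could not be used here, since FPKM are not counts, so depth is known only relative to the other libraries and no counting interval was computed. Groups and replicate numbers came from the sample labels, where the group named saline here is titled PBS. The age of the injected mice and the 24 h after injection came from the study's methods. All 20 columns were used.

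Each library's FPKM were scaled by its median-of-ratios factor. Log2(FPKM + 0.1) of genes whose mean FPKM exceeded 0.1 was then fitted in limma (3.58.1, R 4.3.3, eBayes with trend), 10 libraries per experiment, and all 20 for the control groups and the difference of effects. Calls needed an adjusted p (Benjamini-Hochberg, all genes of the fit) under 0.05, and counts at unadjusted p values up to 0.05 accompany them. In simulated data 94.5% of 200 genes changed 2-fold were called among 15704 genes in OIR and 92.5% among 15408 genes after Ceapin-A7. Only 2-fold changes were simulated, in genes with a mean FPKM above 1 and with noise drawn separately for each gene. Shifts shared by many genes of a library, such as those that followed GC content, were not simulated. The shares may therefore be too high for the real libraries. Estimated changes of the genes described here were smaller, such as 0.809-fold for Wfs1 and 1.21-fold for Bloc1s1 after Ceapin-A7. The simulated shares therefore do not show how often changes of that size would be called.

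The 7 genes, the lists and the rules were chosen with earlier results of these data known. Named genes are the 7, the 2 of smallest p in each list and comparison, the 2 closest to each of the 7, and Atf6. Some genes that this rule names are not reported here. Crygb, Crygc and Rdh5 were named after their values were seen. Stem-loops were searched in GENCODE M21 and promoters in RefSeq tables of GRCm38, another build than the authors' alignment. GC content and length were those of the longest M21 transcript per symbol (97.0% of genes matched). Alternatives were pseudocount 1, no filter, a mean FPKM above 1, FPKM as deposited, TPM, quantile normalization, a constant prior variance, array weights, the replicate block, a fit of all 20 libraries, leaving out each library, and a lowess GC correction (span 0.3). Leaving out saline replicates 4 and 5, leaving out Atf6+/+ replicate 4 with Atf6-/- replicate 5, and a transcript length correction were chosen after seeing the data.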

Additional observations from a re-analysis of the deposited data

Results flagged for a closer look

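In groups of 5, a library was singled out when its gap to the next one was over 0.71 of the group's range, on the rescaled log2 scale. The values printed below are deposited FPKM, on which the gap can be a smaller part of the range. That held in 15 of 180 groups checked over 45 genes, and chance gives about 1 in 20. Among the 7 genes, Xbp1 in Atf6+/+ OIR was lowest in replicate 5, at 40.23 FPKM against 50.93 in the next library, and Ern1 after Ceapin-A7 was highest in replicate 1, at 8.77 against 8.53. Xbp1 in Atf6-/- against Atf6+/+ OIR had a log2 fold change of -0.26 without that library (-0.18 with it).

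The other 13 were genes of the lists. Pdgfrb was lowest in Atf6+/+ OIR replicate 4 (6.64 FPKM, next 9.71) and highest in Atf6-/- OIR replicate 5 (11.37, next 6.32). Ncs1 was likewise lowest in Atf6+/+ replicate 4 (9.35) and highest in Atf6-/- replicate 5 (11.15), and Bloc1s5 (8.01) and Cisd2 (19.46) were lowest in Atf6-/- replicate 5. Atf6+/+ replicate 4 was highest for Spcs2 (45.53). In other Atf6-/- libraries, Itgb2 was highest in replicate 3 (1.47) and Rtraf in replicate 2 (59.61). Among saline libraries, Syvn1 was lowest in replicate 2 (18.81), Bloc1s5 highest in replicate 3 (15.61) and Fkbp14 lowest in replicate 3 (6.62). Hpse was highest in Ceapin-A7 replicate 3 (2.92, next 1.11). No cause was tested.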

How the results depend on the processing

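In Atf6-/- against Atf6+/+ OIR 5 genes were called. The count was 9 with no filter, 8 with the GC correction, 11 with all 20 libraries fitted together, 2772 with array weights and 3914 without Atf6+/+ replicate 4 and Atf6-/- replicate 5, libraries picked after seeing the data. With 1 library left out it was 5 to 9, with 9 only without Atf6-/- replicate 5. Wfs1 passed with array weights (-0.4202, adjusted p = 0.027 by limma) and without both libraries (-0.5159), where Hgsnat passed too (0.1549). Scara3, at 0.01, was -0.0058 with FPKM as deposited, -0.0123 as TPM, -0.1091 with array weights, -0.1804 without both libraries, and -0.0908 to 0.1324 with 1 library left out. With the GC correction Fam98b was -0.02 and Ids -0.0207.
Ceapin-A7 against saline called 0 genes by limma, with 1596 at an unadjusted p of 0.05 or less. It called 1 with all 20 libraries fitted together, and 0 with each library left out. Without saline replicates 4 and 5 Xbp1 was 0.0679, Dnajb9 0.0311, Hgsnat -0.0176, Scara3 0.0604 and Fam98b -0.0007, and Scara3 was 0.0069 with array weights. Leaving out 1 library gave -0.0559 to 0.0263 for Scara3 and -0.1043 to 0.3253 for Hpse, negative only without Ceapin-A7 replicate 3.
Saline P30 against Atf6+/+ OIR called 9224 genes, 8753 to 9522 with 1 library left out. The GC correction gave Xbp1 0.0112, Wfs1 0.0461, Scara3 0.0248 and Bloc1s1 -0.2245, the last no longer called. Without saline replicates 4 and 5 Xbp1 was called (-0.2461) and Bloc1s1 was not (-0.2197), and the transcript length correction gave Xbp1 0.0065. Leaving out 1 library gave -0.1662 to 0.0222 for Xbp1 and -0.1842 to 0.02 for Scara3.
The difference of effects called 5 genes, 744 with array weights, 1721 without Atf6+/+ replicate 4 and Atf6-/- replicate 5, and 3 to 12 with 1 library left out, 12 without Atf6-/- replicate 5. It called 3 without each of 10 other libraries (Atf6+/+ 1 and 5, Atf6-/- 1 to 4, Ceapin-A7 1 to 4). Wfs1 was -0.0098 with deposited FPKM, -0.1243 with array weights, -0.1098 without saline replicates 4 and 5, -0.199 without the OIR libraries, and -0.1108 to 0.0785 with 1 library left out. Scara3 was -0.1229 with array weights, -0.0465 without saline replicates 4 and 5, -0.1564 without the OIR libraries, and -0.0697 to 0.1451 with 1 library left out. Xbp1 was -0.1653 to 0.0234 with 1 library left out. Cisd2 was -0.0008 with the GC correction, and Ddx1 was 0.0188 without saline replicates 4 and 5 and 0.0007 without the OIR libraries. The causes of these shifts were not tested.
Replicate numbers were not used as pairs in the main fits. Same-numbered deviations correlated at -0.258 to 0.21 in OIR and -0.217 to 0.31 after injection. Differently numbered ones correlated at -0.529 to 0.298 and -0.359 to 0.338. No pairing was seen in these values, and a litter or batch shared by number was not tested. The replicate block gave 5, 0, 9107 and 3 calls in the 4 comparisons and changed no call of the 7 genes.
FPKM without counts set no limit by depth for single values, and intervals rest on 5 libraries per group. Gene-level values hold no splicing, so IRE1 activity itself was not measured.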
